A study of Mus musculus with 11 samples.

Results

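The genes described here are 6 components of Fc gamma receptor signalling: the activating receptors Fcgr1, Fcgr3 and Fcgr4, the inhibitory receptor Fcgr2b, the common signalling chain Fcer1g and the kinase Syk. They were taken by symbol from a table of 16934 genes, and all 6 were among the 11276 genes with enough counts to be tested. RNA had been sequenced from the 3′ end of transcripts in 11 libraries made from primary microglia, the resident brain macrophages, in a study of thin membrane bridges between microglia and neurons. The cells came from C57BL/6 pups aged 0 to 3 days, had been grown for 7 to 10 days and were at passage 0. There were 4 libraries from microglia cultured alone, without α-synuclein. Another 3 were from microglia co-cultured for 6 h beside untreated cortical neurons, themselves cultured for 14 days. The last 4 were from microglia co-cultured for 6 h beside such neurons after these had taken up α-synuclein fibrils carrying a fluorescent label (0.1 µM, 16 h) and been washed. The labels describe no transgene in any group, and do not say how microglia were recovered from the co-cultures. Nor do they state that replicate libraries are separate cultures or animals. The p-values below therefore reflect the spread among these samples alone, and that spread may be technical.

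Fc gamma receptors bind the constant part of immunoglobulin G and let macrophages take up particles and immune complexes coated with antibody. The activating receptors reach the cell surface and signal with the Fcer1g chain, whose tyrosine motif (ITAM) is phosphorylated by Src-family kinases and then docks Syk, which passes the signal to phospholipase C gamma, Vav and phosphoinositide 3-kinase. Fcgr2b carries an inhibitory motif instead and recruits phosphatases such as SHIP-1, the product of Inpp5d, that end the signal. Fcgr1 is the high-affinity receptor and is a known interferon-gamma target, and in microglia the family is known for clearance of antibody-bound aggregates.

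Fcgr2b, Fcgr4, Fcgr3 and Fcer1g lie in 1 region of chromosome 1 in mm10 coordinates. Fcgr2b spans 170960558 to 170976071, Fcgr4 spans 171018926 to 171029761, Fcgr3 spans 171051169 to 171065915 and Fcer1g spans 171229572 to 171234349. Fcgr1 lies on chromosome 3 from 96282909 to 96293969 and Syk on chromosome 13 from 52582610 to 52648792. These are whole genes in the RefSeq annotation of GRCm38.p6, whose chromosomes are those of mm10, and the counts are per gene, not per exon. Because the receptors are related, the last 500 bases of their coding transcripts were searched in GENCODE vM21 for 50-base stretches found in any other gene. None was found for Fcgr1, Fcgr3, Fcgr4, Fcer1g or Syk, and 2.25% of such stretches of Fcgr2b also occur in Fcgr3. Fcgr3 and Fcgr4 each hold a small RNA gene on their own strand, Mir6546 and Gm26110. An antisense transcript, Gm38204, overlaps Fcgr2b, and since the strand setting of the counting is not given in the sources used here, its reads could not be told apart from those of Fcgr2b.

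The promoters of the 3 activating receptors are shown because Fcgr1 and Fcgr4 had higher values in the co-cultures and Fcgr3 did not. Each is the RefSeq GRCm38.p6 window from 250 bases before to 50 bases after a start in the table used here, read 5′ to 3′ along the gene. The table held windows for 6 of 6 genes. Capitals mark matches to GAS (TTCNNNGAA), the element of interferon-gamma signalling, to ISRE (a pair of GAAA runs with 2 bases between them), the element of type I interferon signalling, and to PU.1 (AGAGGAAG), the core of the macrophage lineage factor.
Fcgr1, chr3:96293920-96294219, minus strand: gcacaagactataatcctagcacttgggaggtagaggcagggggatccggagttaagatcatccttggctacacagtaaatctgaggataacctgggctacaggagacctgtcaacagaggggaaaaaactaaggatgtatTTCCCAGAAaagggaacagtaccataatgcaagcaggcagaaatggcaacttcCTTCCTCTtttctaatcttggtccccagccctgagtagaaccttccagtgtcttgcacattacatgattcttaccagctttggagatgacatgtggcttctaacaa
Fcgr3, chr1:171059354-171059653, minus strand: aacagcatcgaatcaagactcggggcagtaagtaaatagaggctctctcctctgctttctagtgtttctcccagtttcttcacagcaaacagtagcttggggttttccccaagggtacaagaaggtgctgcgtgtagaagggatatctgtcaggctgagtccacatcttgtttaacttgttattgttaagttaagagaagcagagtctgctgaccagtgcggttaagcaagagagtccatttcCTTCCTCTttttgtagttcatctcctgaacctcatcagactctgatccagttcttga
Fcgr4, chr1:171018676-171018975, plus strand: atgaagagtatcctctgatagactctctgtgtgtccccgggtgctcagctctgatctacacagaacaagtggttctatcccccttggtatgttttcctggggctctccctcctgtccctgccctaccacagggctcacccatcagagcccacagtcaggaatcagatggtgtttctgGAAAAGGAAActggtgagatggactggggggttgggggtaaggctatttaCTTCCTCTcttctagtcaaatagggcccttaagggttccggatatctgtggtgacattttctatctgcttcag

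The Fcgr1 window held the GAS letters TTCCCAGAA beginning 109 bases before the start, and the PU.1 letters beginning 56 bases before it. The Fcgr4 window held the ISRE letters GAAAAGGAAA beginning 73 bases before the start, and the PU.1 letters beginning 23 bases before it. The start of the Fcgr3 window lies 6512 bases inside the outermost end of the gene as annotated, and the outer end was not searched, while the windows of Fcgr1 and Fcgr4 are placed on the outermost ends of their genes. The Fcgr3 window held the PU.1 letters alone of these 3 motifs, beginning 7 bases before the start. A second start of Fcgr3, 9 bases away, gave the same match. Both strands were searched, and no 2 of these matches overlapped. The windows of Fcgr2b, Fcer1g and Syk held none of the 3, those of Syk being 827 and 14272 bases inside its outermost end. Of 32851 promoter windows of all genes, 8.30% held GAS, 3.44% held ISRE and 4.55% held the PU.1 letters. A search for AP-1 (TGANTCA), in 7.81% of all windows, matched no member. NF-kB (GGG and CC with 5 bases between them) and C/EBP (TTNNGNAA) were in 50.8% and 40.7% of all windows and so separated little. The NF-kB letters matched every member but Fcgr1, and the C/EBP letters matched Fcgr3, Fcgr4 and Syk. A match is a run of letters and not a measured binding site.

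**Figure D1:**
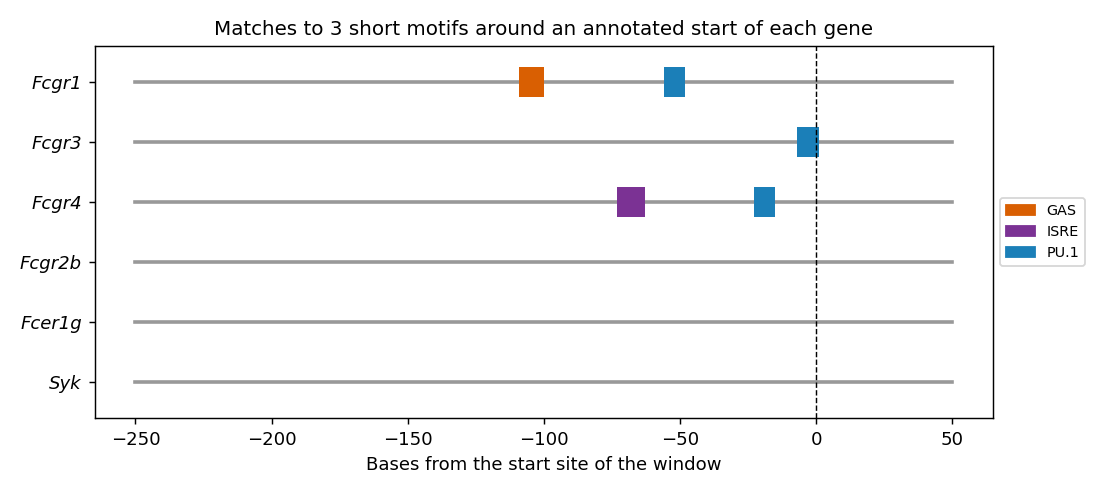
Matches to GAS, ISRE and PU.1 letters in the promoter window of each gene, with bases from the window's start site on the x axis and 1 line per gene. Fcgr1, Fcgr3 and Fcgr4 hold a PU.1 match, Fcgr1 a GAS match and Fcgr4 an ISRE match, and the other 3 genes hold none.

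Total counts per library ran from 8253070 to 16802451. Between 9157 and 11739 genes had a count in a library, and the median r of a library with the others was 0.748 to 0.814. The spread between libraries of a group that edgeR estimated in common for the tested genes was 1.15 as a coefficient of variation. A gene that did not pass was therefore not shown to be unchanged. A list of 20 pan-microglia and macrophage genes summed to between 22709 and 32616 CPM (counts scaled to a common library size after TMM adjustment) in the 11 libraries, and none of its genes was at 0 in any group. Its mean was 25125 ± 1861 CPM (SD, n = 4) for microglia alone. Beside untreated neurons it was 30054 ± 2282 CPM (n = 3), and beside neurons holding fibrils 27920 ± 3365 CPM (n = 4). Of the 25 neuronal markers, the sum came to between 1349 and 1613 CPM alone and to between 639 and 1209 CPM in the co-cultures, most of it Basp1. Among cells that also carry Fc receptors, the neutrophil and monocyte list had 7 of 13 genes in the table and reached 37.9 ± 25.5 CPM in sum for microglia alone, 75.3 ± 26.7 CPM beside untreated neurons and 58.3 ± 13.5 CPM in the fibril group. Most of that was Csf3r, and the neutrophil marker Ly6g had no count in any group. B cell and mast cell genes (2 of 10 in the table) and natural killer and T cell genes (1 of 9) did not exceed 2.66 CPM in sum in any library. The ribosomal RNA precursor Rn45s took 19.4 ± 4.45% of counts in microglia alone, 12.6 ± 2.69% beside untreated neurons and 12.8 ± 2.85% in the fibril group. These differences run beside those of Fcgr1, Fcgr4 and Syk, and beyond a fit without Rn45s their part in them was not tested. That fit shifted the median log2 fold change of all genes against microglia alone by 0.0025 to 0.0052, and no member passed in it. In bulk RNA, fewer cells of a type and less RNA per cell cannot be told apart.

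The 3 genes with higher values beside neurons were Fcgr1, Fcgr4 and Syk. For Fcgr3, Fcgr2b and Fcer1g the interval of the difference held 0 in every comparison. None of the 6 passed the test across all genes in any of the 4 comparisons (edgeR's quasi-likelihood test, two-sided, Benjamini-Hochberg adjusted p below 0.05), so each difference below is a set of values and not a called change. With untreated neurons against microglia alone, 0 of 6 passed where 0.639% of all tested genes did. At an unadjusted p below 0.05 there were 3 of 6, all higher, where 4.66% of all genes were. With fibril-loaded neurons against alone, 0 of 6 passed (background 0.319%) and 2 of 6 had an unadjusted p below 0.05 on the higher side (background 4.25%). Both co-cultures together against alone gave 0 of 6 (background 1.03%) and 3 of 6 (background 5.12%). DESeq2 called 1, 0 and 0 members in these comparisons. Among genes given an adjusted p it called more than edgeR did: 1.53% higher and 2.74% lower with untreated neurons, 1.24% and 1.13% with fibril-loaded neurons, and 2.21% and 2.73% with both. Limma on the authors' normalized table called 0 members in each (background 0.718%, 0.355% and 1.45%). The first 2 of these comparisons share the same control libraries, and the third combines them. Because the members were chosen with earlier results of these data known, counts above the background are descriptions and not independent evidence.

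**Figure D2:**
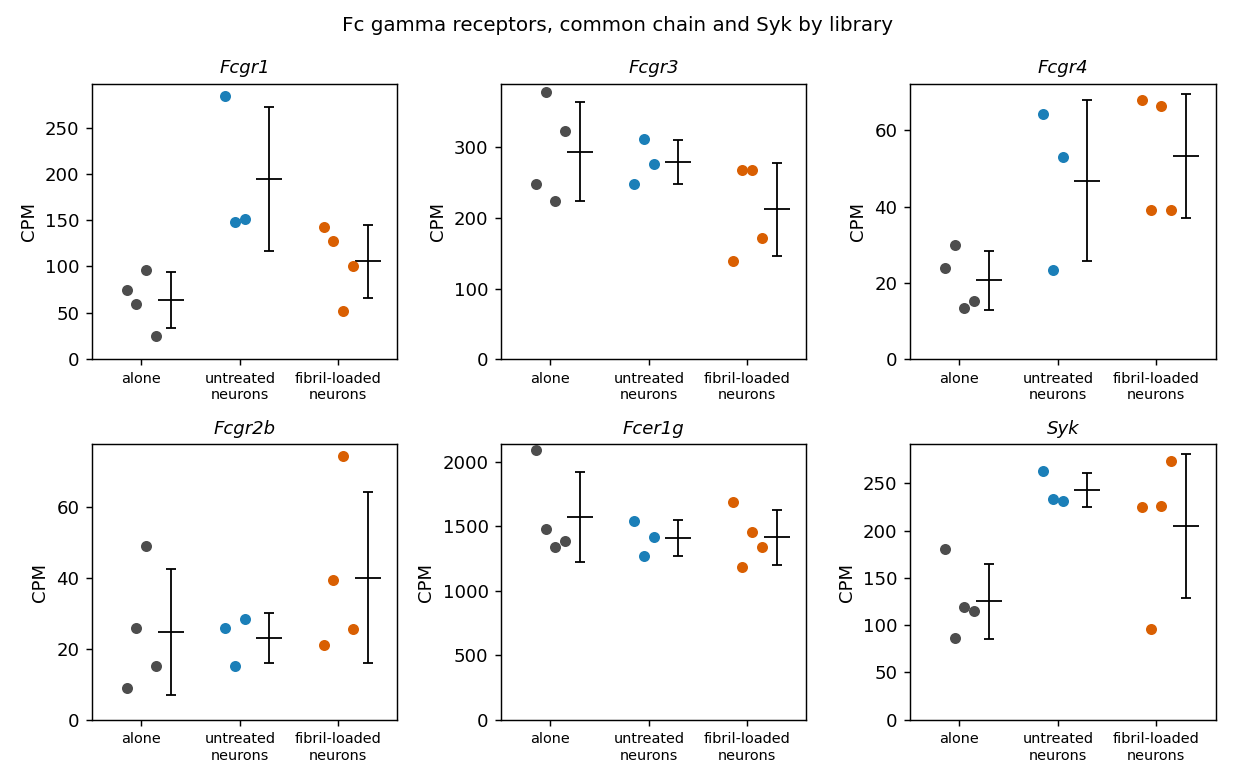
CPM on the y axis for each gene in each library, grouped by culture condition on the x axis. Points are libraries (4, 3 and 4) and the bar with whiskers is the mean ± SD; all 3 untreated-neuron libraries lie above all 4 libraries of microglia alone for Fcgr1 (at least 148 against at most 96.0 CPM) and Syk (at least 231 against at most 181 CPM).

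The kit primes at the 3′ end of a transcript, so a count does not grow with gene length, and CPM levels of different genes are set side by side on that basis. Fcer1g was by far the most abundant member, with group means between 1410.3 and 1574 CPM. In microglia alone the order below it was Fcgr3 at 294 CPM, Syk at 125, Fcgr1 at 63.4, Fcgr2b at 24.7 and Fcgr4 at 20.6 CPM. The ranges of Syk and Fcgr1, of Fcgr1 and Fcgr2b and of Fcgr2b and Fcgr4 overlapped. Within each of these libraries, however, Syk was above Fcgr1 and Fcgr1 above Fcgr2b, while the order of Fcgr2b and Fcgr4 varied. With untreated neurons the mean of Fcgr4, at 46.8 CPM, stood above that of Fcgr2b, at 23.1 CPM. There the ranges of Fcgr3, Syk and Fcgr1 overlapped, as did those of Fcgr4 and Fcgr2b. Fcgr4 was above Fcgr2b in every library of that group, while the order of Fcgr3, Syk and Fcgr1 varied. With fibril-loaded neurons the order of means was the same as with untreated neurons. There each gene below Fcer1g overlapped its neighbours, Fcgr1 with Syk above it and with Fcgr4 below it, and no order of neighbours held in every library.

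Fcgr1, the high-affinity receptor, was at 74.2, 59.0, 96.0 and 24.5 CPM in the 4 libraries of microglia alone. It was at 284, 148 and 151 CPM in the 3 with untreated neurons, and at 142, 128, 52.0 and 101 CPM in the 4 with fibril-loaded neurons. Every untreated-neuron library lay above every library of microglia alone and also above every fibril library, while fibril libraries overlapped those of microglia alone. The means were 63.4 ± 30.1 (SD, n = 4), 194 ± 78.0 (n = 3) and 106 ± 39.7 CPM (n = 4). Against alone, the log2 fold change with untreated neurons was 1.62 (SE 0.43, edgeR adjusted p = 0.0987), with an unadjusted 95% interval from 0.72 to 2.51. This call depended on the method. It passed with DESeq2 (adjusted p = 0.0232) and without the low-count filter (0.00359), and 3 of 10 alternative settings called it, with adjusted p over the 10 from 0.00359 to 0.379. The remaining setting that called it was a block from the facility codes in the titles, which were not shown to pair the samples. With fibril-loaded neurons the log2 fold change was 0.73 (SE 0.40, edgeR adjusted p = 0.727). The test of fibril-loaded against untreated neurons gave -0.88 (SE 0.43, unadjusted p = 0.0511, edgeR adjusted p = 1), so the larger value beside untreated neurons was not shown to differ.

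Fcgr4, an activating receptor of intermediate affinity, was the other receptor with higher values. It was at 24.0, 30.0, 13.4 and 15.1 CPM in microglia alone, at 64.2, 23.3 and 53.0 CPM with untreated neurons, and at 68.0, 39.1, 66.5 and 39.1 CPM with fibril-loaded neurons. All 4 fibril libraries lay above all libraries of microglia alone, whereas library 2 with untreated neurons lay within their range. Group means were 20.6 ± 7.80 (n = 4), 46.8 ± 21.1 (n = 3) and 53.2 ± 16.3 CPM (n = 4). The log2 fold change against alone was 1.37 with fibril-loaded neurons (SE 0.50, edgeR adjusted p = 0.439) and 1.18 with untreated neurons (SE 0.53, edgeR adjusted p = 0.444). With both co-cultures together it was 1.27, with an unadjusted 95% interval from 0.31 to 2.24 and an edgeR adjusted p of 0.247. The adjusted p over alternatives of this joint comparison, leave-one-out fits apart, ran from 0.0622 to 0.467. Counts of Fcgr4 ran from 151 to 1062 per library, low beside those of Fcgr3, Syk and Fcer1g.

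Fcgr3, the low-affinity activating receptor and by mean the most abundant of the 4 receptors in every group, was at 249, 379, 225 and 324 CPM in microglia alone. It was at 249, 311 and 276 CPM with untreated neurons and at 139.7, 269, 268 and 172 CPM with fibril-loaded neurons. The groups overlapped, and the lowest pair of values came from fibril libraries 1 and 4. The log2 fold change was -0.076 with untreated neurons (95% interval -0.71 to 0.56) and -0.47 with fibril-loaded neurons (-1.06 to 0.12). Neither passed (edgeR adjusted p = 0.997 and 0.83). The interval with fibril-loaded neurons reached down to 0.480-fold, so equal levels were not shown. With total counts in place of TMM scaling the direction of the first difference turned, to 0.024.

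Fcgr2b, the inhibitory receptor, had the largest standard errors of the 6 in each comparison, 0.64 to 0.70 between single groups. It was at 8.85, 25.7, 49.0 and 15.1 CPM in microglia alone, at 25.8, 15.1 and 28.4 CPM with untreated neurons, and at 21.2, 39.2, 74.1 and 25.4 CPM with fibril-loaded neurons. The 3 groups overlapped. The log2 fold change against alone was -0.093 with untreated neurons (95% interval -1.52 to 1.34) and 0.70 with fibril-loaded neurons (-0.63 to 2.03), with edgeR adjusted p of 0.997 and 1. The highest value, 74.1 CPM, belonged to fibril library 3, and the lowest, 8.85 CPM, to library 1 of microglia alone.

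Fcer1g, the chain that the activating receptors share, was at 2092, 1482, 1337 and 1386 CPM in microglia alone. It was at 1543, 1267 and 1421 CPM with untreated neurons and at 1689, 1185, 1457 and 1338 CPM with fibril-loaded neurons. The groups overlapped throughout, and library 1 of microglia alone was the highest of the 11. The log2 fold change against alone was -0.16 beside untreated neurons (95% interval -0.69 to 0.37) and -0.15 in the fibril group (-0.64 to 0.34), with edgeR adjusted p of 0.992 and 1. It was the most tightly measured member: with both co-cultures together the interval ran from -0.59 to 0.28, which does not reach a 2-fold change either way.

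Syk, the kinase that binds the phosphorylated chain, was at 181, 86.3, 119 and 115 CPM in microglia alone. It was at 263, 234 and 231 CPM with untreated neurons and at 225, 95.8, 226 and 274 CPM with fibril-loaded neurons. The untreated-neuron libraries all lay above microglia alone, and 3 of the 4 fibril libraries did as well, while fibril library 2 lay among them. The means were 125 ± 39.6 (n = 4), 243 ± 18.0 (n = 3) and 205 ± 76.3 CPM (n = 4). The log2 fold change was 0.95 with untreated neurons (SE 0.34, edgeR adjusted p = 0.311) and 0.71 with fibril-loaded neurons (SE 0.32, edgeR adjusted p = 0.588). With both co-cultures together it was 0.83, with a 95% interval from 0.22 to 1.44 and an edgeR adjusted p of 0.228.

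**Figure D3:**
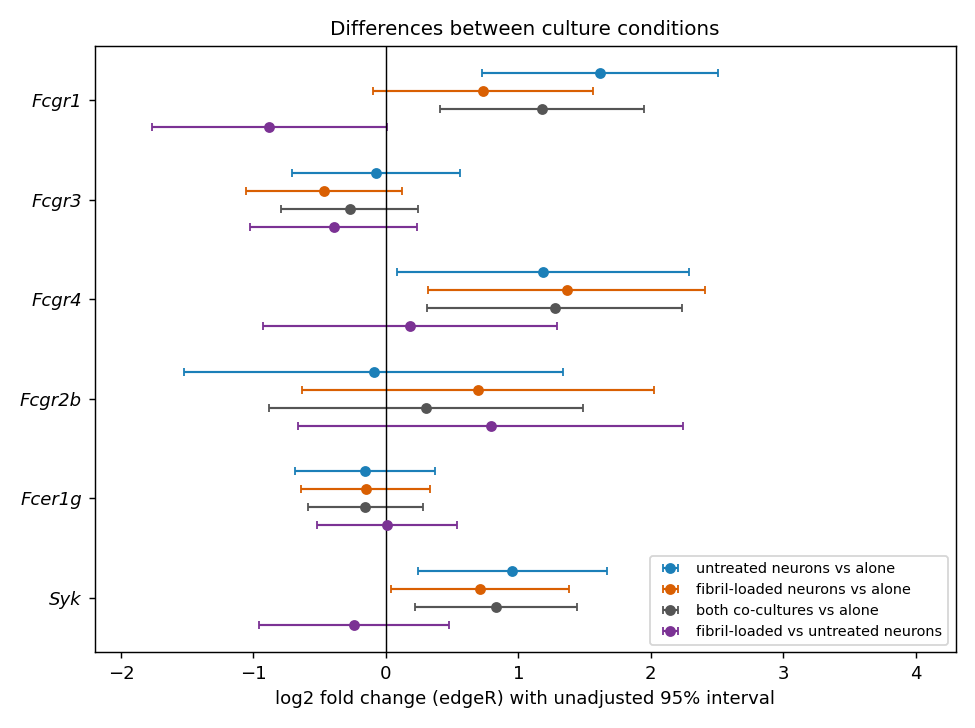
Log2 fold change on the x axis for each gene in 4 comparisons, with unadjusted 95% intervals from edgeR. Intervals of Fcgr1, Fcgr4 and Syk lie above 0 for both co-cultures together (lower bounds 0.41, 0.31 and 0.22), those of Fcgr3, Fcgr2b and Fcer1g cross 0, and none passes adjustment over all genes.

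Counting libraries whose ranges lay apart gave a similar picture, for members chosen with earlier results of these data known. With untreated neurons, Fcgr1 and Syk, 2 of 6 members, had ranges wholly above microglia alone, where 4.90% of all tested genes did. With fibril-loaded neurons this held for Fcgr4, 1 of 6, where 2.70% of all genes did. For the 7 co-culture libraries together it held for 0 of 6 members, where 1.21% of genes did. The median log2 fold change of the 6 was 0.44, 0.70 and 0.57 in these comparisons, beside -0.052, -0.039 and -0.089 over all tested genes. Positive fold changes numbered 3, 4 and 4 of the 6 (background 47.7%, 47.9% and 45.1%). Across the 11 libraries the log2 CPM of Syk had a Pearson r of 0.55 with Fcgr4, 0.49 with Fcgr1 and -0.50 with Fcgr3, as a description of libraries that also share depth and group.

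The comparison of the co-cultures with each other asks what fibrils in the neurons changed in the microglia. None of the 6 members passed in edgeR, as was true of every tested gene (background 0%), and 0 of 6 had an unadjusted p below 0.05, where 2.64% of all genes were higher and 1.30% lower. DESeq2 and limma also called 0 members. Over all genes limma called 0% and DESeq2 called 1.32% higher and 0.357% lower, so the tools differ on whether any gene separates the co-cultures. The log2 fold changes were -0.88 for Fcgr1, -0.39 for Fcgr3, 0.18 for Fcgr4, 0.79 for Fcgr2b, 0.0069 for Fcer1g and -0.24 for Syk. Fcgr1 was the 1 member whose ranges lay apart, its highest fibril library at 142 CPM being just under the lowest untreated-neuron library at 148 CPM, where 2.30% of all genes were lower in this way. The 95% intervals were wide for Fcgr2b (-0.66 to 2.24) and Fcgr4 (-0.93 to 1.29), so a change of 2-fold was within both. The interval of Fcgr1, the member with the largest difference here, also held a 2-fold fall.

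Shares of the 4 receptors' summed counts do not depend on the scaling between libraries. Fcgr3 made up 72.7 ± 11.3% (SD, n = 4) of receptor counts in microglia alone. It made up 52.3 ± 11.5% (n = 3) beside untreated neurons and 50.9 ± 9.34% (n = 4) in the fibril group. Its share was 58.7 to 85.5% alone and 37.7 to 58.2% with fibril-loaded neurons, so these ranges lay apart by a small gap, while those with untreated neurons, 39.9 to 62.6%, overlapped both. The share of Fcgr1 was 16.1 ± 8.43% alone, 35.0 ± 9.20% beside untreated neurons and 26.6 ± 11.3% in the fibril group. It ran from 6.47% in library 4 of microglia alone (exact binomial 95% interval 5.77 to 7.23%) to 45.6% in library 1 with untreated neurons (44.7 to 46.6%), intervals that cover counting error only. Fcgr4 took 5.08 ± 1.58%, 8.47 ± 3.28% and 13.1 ± 4.28%, and every fibril library, at 8.24% or more, exceeded every library of microglia alone, at 6.74% or less. Fcgr2b took 6.12 ± 4.58%, 4.25 ± 1.27% and 9.40 ± 4.58%, with overlapping ranges. No test was run on these shares, which combine the members.

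**Figure D4:**
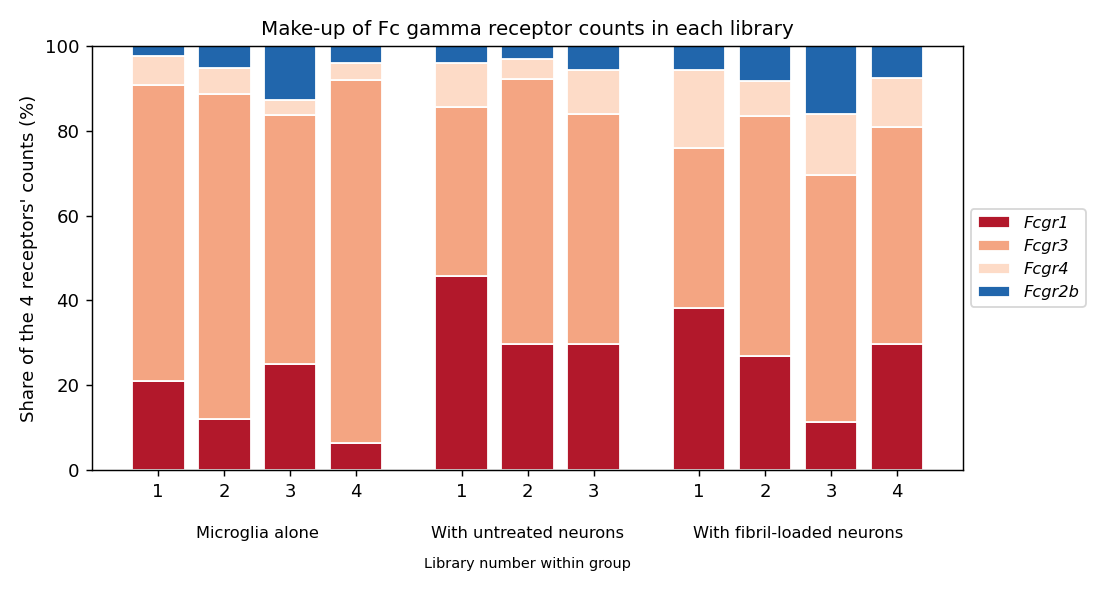
Share of the summed counts of the 4 Fc gamma receptors, in percent on the y axis, stacked by receptor for each library on the x axis. Fcgr3 is the largest part in all 4 libraries of microglia alone (58.7 to 85.5%), and Fcgr1 reaches 45.6% in library 1 with untreated neurons.

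The 3 activating receptors together outnumbered Fcgr2b in every library. The ratio of their summed counts to those of Fcgr2b was 22.1 ± 13.5 (n = 4) for microglia alone. It was 24.0 ± 7.49 (n = 3) beside untreated neurons and 11.3 ± 4.66 (n = 4) in the fibril group. It ranged from 6.82 to 39.2 alone, which covers the ranges of both co-cultures but for fibril library 3, at 5.22. All fibril libraries, at 16.5 or less, lay under those with untreated neurons, at 16.9 or more, by a small margin. Fcer1g counts per activating-receptor count were 4.25 ± 1.24 alone, 2.72 ± 0.204 beside untreated neurons and 3.90 ± 0.898 in the fibril group. The values with untreated neurons, 2.58 to 2.96, lay under all of those in microglia alone, 3.17 to 6.03, and overlapped those with fibrils, 2.72 to 4.83. These ratios were not tested either.

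The pathway around the members was followed in 6 lists of 97 genes, of which 87 were in the table and 79 were tested. The lists, too, were chosen with earlier results of these data known, so their counts beside the background are descriptions. With untreated neurons 1 of the 79 passed higher (background 0.461%) and 0 lower (background 0.177%). With fibril-loaded neurons 2 passed higher (background 0.266%) and 0 lower (background 0.0532%), and with both co-cultures together the same 2 passed higher (background 0.603%) and 0 lower (background 0.426%). The median log2 fold change of the 79 was 0.062, 0.099 and 0.12 in these comparisons, beside -0.052, -0.039 and -0.089 over all genes. At an unadjusted p below 0.05 there were 11 higher and 6 lower with untreated neurons (background 4.66% and 5.67%), 10 and 2 with fibril-loaded neurons (4.25% and 3.89%) and 12 and 5 with both (5.12% and 6.20%). Ranges lay apart for 7 higher and 2 lower genes with untreated neurons (background 4.90% and 5.45%), 7 and 1 with fibril-loaded neurons (2.70% and 2.92%) and 4 and 0 with both (1.21% and 1.45%). Pik3r5 passed in all 3 comparisons.

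Src-family kinases phosphorylate the ITAM of Fcer1g, and 5 of 8 were tested. Lyn, which can start both activating and inhibitory signals, was at 306 ± 84.6 CPM alone, 452 ± 72.0 CPM beside untreated neurons and 471 ± 67.1 CPM in the fibril group and did not pass (log2 fold change 0.56 and 0.62, edgeR adjusted p = 0.502 and 0.566). Of the 5, 4 had positive fold changes in both comparisons (background 47.7% and 47.9%), with medians of 0.66 and 0.62. These included Fgr and Src, which were low and had libraries at 0. Group means were 1.35, 2.14 and 8.47 CPM for Fgr and 7.45, 18.4 and 8.71 CPM for Src.

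Adaptors and kinases downstream of Syk held the clearest call. Pik3r5, a regulatory subunit of phosphoinositide 3-kinase gamma, was at 15.1, 30.2, 40.7 and 35.4 CPM in microglia alone. It was at 186, 119 and 177 CPM with untreated neurons and at 124, 157, 257 and 247 CPM with fibril-loaded neurons, with no overlap between either co-culture and microglia alone. It rose by a log2 of 2.41 with untreated neurons (SE 0.38, edgeR adjusted p = 0.0024) and 2.69 with fibril-loaded neurons (SE 0.36, edgeR adjusted p = 6.94e-04), and this call held on leaving out any 1 library and under every alternative run. That kinase is known mainly as a target of G-protein-coupled receptors, so it stands at the edge of this list. None of the other 22 tested genes passed. At an unadjusted p below 0.05, 3 were higher (Pik3r5 included) and 2 lower beside untreated neurons (background 4.66% and 5.67%). There were likewise 3 and 2 in the fibril group (4.25% and 3.89%), and 3 and 3 with the co-cultures together (5.12% and 6.20%). Shc1, an adaptor to Ras, was at 30.2 ± 22.6 CPM alone and 80.9 ± 13.1 CPM with untreated neurons (edgeR adjusted p = 0.311), and Blnk, an adaptor that Syk phosphorylates, at 36.3 ± 2.55 CPM alone and 72.8 ± 17.8 CPM with fibril-loaded neurons (edgeR adjusted p = 0.494). Sh3bp2, which binds Syk and Vav, was at 179 ± 52.8 CPM alone and 302 ± 76.6 CPM over the 7 co-cultures (edgeR adjusted p = 0.236). Of the 23 tested genes, 15 had positive and 8 negative fold changes with untreated neurons, and 14 and 9 with fibril-loaded neurons (background 47.7% and 47.9% positive). Vav3 and Pik3cd, named here after their values were seen, were lower. Vav3 was at 51.8 ± 11.9 CPM alone, 21.8 ± 5.87 CPM beside untreated neurons, with ranges apart, and 30.8 ± 16.4 CPM in the fibril group. Pik3cd was at 250 ± 48.6, 166 ± 74.2 and 148 ± 73.3 CPM, with overlapping ranges. The list median was 0.12 beside untreated neurons and 0.37 in the fibril group.

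Inhibitors of the pathway, 18 of 18 tested, had a median log2 fold change of -0.23 beside untreated neurons and -0.21 in the fibril group. In edgeR 0 of 18 passed in either comparison. At an unadjusted p below 0.05 there were 2 higher and 3 lower with untreated neurons (background 4.66% and 5.67%). DESeq2 called 0 higher and 2 lower there, where it called 1.53% of all genes higher and 2.74% lower. With fibril-loaded neurons 1 was higher and 0 lower at that unadjusted level (background 4.25% and 3.89%), and DESeq2 called none. Inpp5d, which encodes SHIP-1 and is named here after its values were seen, was at 100.3 ± 29.1 CPM alone, 170.0 ± 48.2 CPM beside untreated neurons and 149.6 ± 40.6 CPM in the fibril group. Its log2 fold change was 0.76 and 0.58 (edgeR adjusted p = 0.441 and 0.737, unadjusted 0.0351 and 0.0822), with overlapping ranges. Inppl1, the related lipid phosphatase SHIP-2, was at 430.5 ± 173 CPM alone, 167 ± 102 CPM beside untreated neurons and 257 ± 47.3 CPM in the fibril group (log2 fold change -1.37 and -0.74, edgeR adjusted p = 0.153 and 0.614; 0.0259 with DESeq2 for the first). Dok2, an adaptor that restrains Ras, was at 238 ± 86.3 CPM alone, 103 ± 13.3 CPM beside untreated neurons and 193 ± 84.3 CPM in the fibril group (log2 fold change -1.21 with untreated neurons, edgeR adjusted p = 0.163; 0.0301 with DESeq2). Pirb, an inhibitory receptor on macrophages whose reads may be shared with its near-identical Pira relatives, ran the other way. It was at 45.7 ± 34.0 CPM alone, 124 ± 44.0 CPM beside untreated neurons and 106 ± 17.3 CPM in the fibril group, with an edgeR adjusted p of 0.133 for both co-cultures together (0.0437 with DESeq2).

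Other receptors and adaptors with ITAM signalling had 10 of 15 genes tested, and 0 passed in edgeR in any comparison. At an unadjusted p below 0.05, 3 were higher and 0 lower with untreated neurons (background 4.66% and 5.67%). With fibril-loaded neurons there were 2 and 0 (background 4.25% and 3.89%), and DESeq2 called 0 in both. Clec4d and Clec4e, C-type lectins that signal through Fcer1g, were among them. Clec4d was at 222 ± 46.5 CPM alone, 394 ± 165 CPM beside untreated neurons and 423 ± 142 CPM in the fibril group, and all 7 co-culture libraries, at 298 CPM or more, lay above microglia alone, at 285 CPM or less (log2 fold change 0.88 for both together, edgeR adjusted p = 0.149; 0.0301 with DESeq2). Clec4e was at 55.8 ± 50.9, 281 ± 294 and 269 ± 239 CPM, with a spread close to its means in the co-cultures (edgeR adjusted p = 0.209 and 0.273; 2.3e-08 and 1.1e-08 without the low-count filter). Its groups overlapped: library 3 of microglia alone, at 129 CPM, was above libraries 1 and 2 of each co-culture. Those were at 119 and 104 CPM with untreated neurons and at 52.4 and 93.8 CPM with fibril-loaded neurons. Without the filter edgeR called 155 and 114 of all genes higher, where it called 52 and 30 with it. The list median was 0.25 and 0.23 in the comparisons with microglia alone.

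Among other Fc-binding receptors only 5 of 11 were in the table and 4 were tested, with 0 passing in edgeR, 0 at an unadjusted p below 0.05 and 0 in DESeq2. Fcgrt, the neonatal receptor that recycles immunoglobulin G, was at 76.7 ± 15.7 CPM alone, 97.9 ± 27.0 CPM beside untreated neurons and 98.9 ± 55.5 CPM in the fibril group. Trim21, a cytosolic receptor for antibody and an interferon-induced gene, was at 7.64 ± 7.69, 20.1 ± 6.41 and 4.67 ± 5.13 CPM. Effectors of Fc receptor uptake, 19 of 19 tested, had medians of -0.034 and 0.077, with 0 passing in edgeR in either comparison. At an unadjusted p below 0.05 there were 2 higher and 1 lower with untreated neurons (background 4.66% and 5.67%). With fibril-loaded neurons there were 2 and 0 (background 4.25% and 3.89%). DESeq2 called 1 and 2 higher, where it called 1.53% and 1.24% of all genes higher. The genes DESeq2 called encode cytosolic subunits of the phagocyte NADPH oxidase. Ncf1 was at 416 ± 158 CPM alone, 776 ± 53.2 CPM beside untreated neurons and 778 ± 54.2 CPM in the fibril group, and its co-culture libraries, at 722 CPM or more, all lay above microglia alone, at 640 CPM or less (edgeR adjusted p = 0.077 for both together). Ncf4 was at 58.2 ± 9.16, 112 ± 39.0 and 136 ± 26.4 CPM (edgeR adjusted p = 0.087 for both together).

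**Figure D5:**
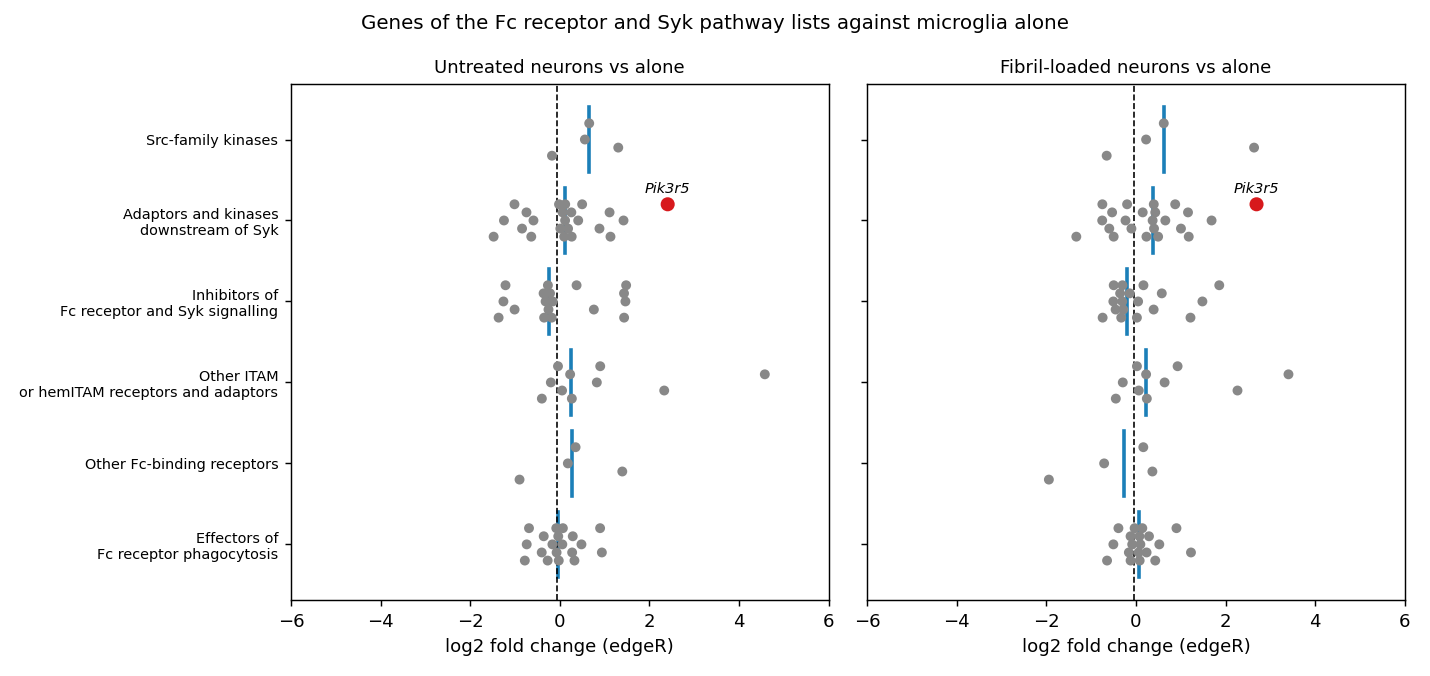
Log2 fold change on the x axis of tested genes of the 6 pathway lists that are reported here, with untreated neurons (left) and fibril-loaded neurons (right) against microglia alone. Red points passed the adjusted test, blue bars are list medians and the dashed line is the median of all tested genes; Pik3r5 passes in both panels (2.41 and 2.69). Medians are over every tested gene of a list.

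Between fibril-loaded and untreated neurons 0 of the 79 pathway genes passed in edgeR, 1 was higher and 0 lower at an unadjusted p below 0.05 (background 2.64% and 1.30%), and DESeq2 and limma called 0. Ranges lay apart for 3 higher and 2 lower genes (background 2.39% and 2.30%). The gene with the unadjusted p below 0.05 was Dok2, at 193 ± 84.3 against 103 ± 13.3 CPM (log2 fold change 0.91, edgeR adjusted p = 1). Its fibril value rests in part on library 1, at 319 CPM beside 142 to 166 CPM in the other 3. Blnk was at 72.8 ± 17.8 against 41.3 ± 4.80 CPM, and Vav1, an exchange factor activated by Syk, at 78.9 ± 15.2 against 128 ± 19.2 CPM (edgeR adjusted p = 1 for each).

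The genes whose log2 CPM ran most alike with each member were ranked by Pearson r over the 11 libraries among 7535 genes of at least 10 CPM on average. Fcgr1 was followed most closely by Slc25a22, a mitochondrial glutamate carrier (r = 0.91), Ifi207, an interferon-inducible gene of a family of near-identical copies (0.90), and Abca1, a cholesterol exporter (0.89). Ifi207 was at 77.8 ± 31.9 CPM alone, 199 ± 71.1 CPM beside untreated neurons and 158 ± 58.0 CPM in the fibril group, and within groups its r with Fcgr1 was 0.84. Fcgr4 was followed by Hs2st1, a heparan sulfate sulfotransferase (0.91), Endod1 (0.90) and Csf2rb2, a receptor subunit for interleukin-3 (0.89). Csf2rb2 was at 32.8 ± 24.3, 184 ± 50.8 and 181 ± 26.7 CPM, and its reads may be shared with Csf2rb. Syk was followed by Rapgef2, a Rap exchange factor (0.93), Arl5c (0.90) and Igsf6, a myeloid surface protein gene (0.89). Fcer1g was nearest to Cfl1, which encodes cofilin (0.92), Gm11478 (0.92) and Smc1a, a cohesin subunit (0.88). Fcgr3 was nearest to Grpel1 (0.90), B3gat3 (0.90) and Hes6 (0.89), and Fcgr2b to Zfp46 (0.88), Abr (0.87) and Tnks2 (0.85). The points share libraries, depth and group, and the highest of 7535 coefficients over 11 libraries is high by selection, so these are descriptions.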

How the data were processed

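The authors deposited raw counts per gene symbol from 11 QuantSeq 3′ mRNA libraries, and STAR, Partek, DESeq2 and the build mm10 are listed, unversioned, in the submitters' processing notes; strand setting and duplicate handling are not given in the sources used here. A second table that the authors deposited holds normalized values, used as a score: between 99.75% and 99.99% of its values in a library lay within 0.51 of the count divided by 1 factor. Columns were matched to samples by the code in each title. Counts passing filterByExpr were fitted in R 4.3.3 with edgeR 4.0.16 (TMM, quasi-likelihood test, group as the only term, all 11 libraries) with Benjamini-Hochberg adjustment over 11276 genes and a threshold of 0.05. Intervals of 95% come from edgeR's standard error. DESeq2 1.42.0 and limma 3.58.1 were alternatives, with other scalings and filters, a block and libraries left out. The code was tested on simulated data. Log2 CPM used a prior count of 2. The named genes were the 6 members, the 2 genes with the smallest p per pathway list and comparison, any that passed (1 pathway gene is not reported here), and the 3 genes most alike to each member. Members and lists were chosen with earlier results of these data known. Inpp5d, Vav3, Pik3cd, Fgr and Src were named besides, after their values were seen.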

Additional observations from a re-analysis of the deposited data

Results flagged for a closer look

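Among 58 groups of 4 libraries checked for a sample far from the others, 2 held one, where chance gives about 1 in 20. Dok2 was at 319 CPM in library 1 with fibril-loaded neurons, far above the other 3 of its group. Fcrl1, a receptor-like gene of B cells, was at 18.0 CPM in library 3 with fibril-loaded neurons, beside values at or near 0 in the rest of that group. No group of the 6 members held such a sample.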

How the results depend on the processing

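Of 6 members, 0 passed in any comparison on leaving out any 1 library, and 1, Fcgr1, passed under 3 alternatives. Fcgr1 passed with untreated neurons without the low-count filter, with DESeq2 and with a replicate block, and with both co-cultures together without the filter (1 member) and with the block (1 member). The cause of these differences was not tested. The block came from the facility codes in the titles and was not shown to pair the samples: residuals of 10 same-block pairs had a median r of 0.033 (-0.026 to 0.058) against -0.011 (-0.048 to 0.044) for 30 other pairs, and 6 of 11 libraries correlated best with their own block. These values are small and lean towards the block, and they do not settle whether the codes pair samples. Same-block pairs of an untreated-neuron and a fibril library had r of 0.058, 0.042 and 0.043, above every other pair of those groups (at most 0.019). Same-block pairs with microglia alone ran from -0.026 to 0.041. With the block, Fcgr1 had an adjusted p of 0.02 with untreated neurons and 0.0399 with both, 5 pathway genes were higher with both and 2 with untreated neurons, and over all genes 112 were higher with both and 53 higher and 13 lower with fibril-loaded neurons.

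Directions turned only for small differences. Fcer1g between fibril-loaded and untreated neurons was -0.024 without the library with the fewest detected genes in each group (chosen after seeing the data), -0.0033 with limma and -0.056 with the block. Fcgr2b with untreated neurons was 0.14 with limma, and Fcgr3 was 0.024 with total-count scaling. Leaving out 1 library gave Fcer1g -0.22 to 0.019 (both), -0.25 to 0.031 (fibril-loaded) and -0.23 to 0.0075 (untreated), each turned by library 1 of microglia alone, and -0.089 to 0.095 between co-cultures. It gave Fcgr2b -0.37 to 0.48 and Fcgr3 -0.19 to 0.071 with untreated neurons, and Fcgr4 -0.14 to 0.50 between co-cultures.

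Counts over all genes moved more. Against the counts of 52 higher and 20 lower with untreated, 30 and 6 with fibril-loaded, 0 and 0 between co-cultures and 68 and 48 with both, DESeq2 gave 180 and 323, 143 and 130, 163 and 44, and 261 and 322. Without the low-count filter they were 155 and 79, 114 and 50, 5 higher between co-cultures, and 199 and 142. Without the fewest-gene libraries they were 21 and 8 with untreated neurons, 40 and 19 with both and 1 higher between co-cultures. Fitting only the groups compared gave 28 and 13 with untreated neurons, limma 115 higher with both, and a mean of at least 5 CPM 12 lower with untreated and 3 lower with fibril-loaded neurons. Total-count scaling, which shifted the median of all genes by 0.10 to 0.11 against microglia alone, gave 88 higher and 36 lower with both. Leaving out 1 library gave 25 to 62 higher and 4 to 21 lower with untreated, 21 to 39 and 2 to 5 with fibril-loaded, 0 to 1 each way between co-cultures, and 39 to 72 and 16 to 50 with both.

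Of the pathway genes, DESeq2 called 2 higher and 2 lower with untreated, 4 higher with fibril-loaded, and 6 higher and 1 lower with both. Without the filter 3 were higher and 2 lower with untreated neurons, and 5 and 1 with both. Limma called 4 higher with both. With fibril-loaded neurons 1 was left with a mean of at least 5 CPM, 1 with only the groups compared and 1 without the fewest-gene libraries, and the cause was not tested. Leaving out 1 library gave 1 to 2 higher and 0 to 1 lower with untreated, 1 to 3 higher with fibril-loaded, and 1 to 3 higher and 0 to 1 lower with both. Counts per library were 151 to 1062 for Fcgr4 and 113 to 790 for Fcgr2b, and whether depth limited their comparisons was not tested.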
